A study of Ovis aries with 9 samples.

Results

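The macrophage genes described here are CD68, CSF1R, C1QA, C1QB, C1QC, CD14, AIF1, TYROBP, FCER1G and CD74, chosen by name as markers of macrophages and related myeloid cells. All 10 had a row among the 27174 rows of the ovary count table, and 9 of them passed the filter on low counts together with 16871 genes in all. CD14 did not pass it. The libraries came from whole ovaries of adult ewes, from 3 groups of 3. Han BB (W1, W2, W4) were Small Tail Han ewes that carry the B allele of the FecB mutation in BMPR1B on both chromosomes. Han ++ (W6, W7, W8) were ewes of that breed without the mutation, and Dorset (D4, D5, D6) were ewes of the second breed, labelled wild type. All the ewes, controls included, had their estrus synchronized with a fluorogesterone acetate sponge followed by pregnant mare serum gonadotropin, and their ovaries were taken shortly after the next spontaneous estrus. Breed and genotype change together between Dorset and Han BB, so their parts in that contrast cannot be told apart.

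Macrophages are phagocytes that live in every tissue. In the ovary they are known for clearing dying follicle cells and for taking part in ovulation and in the growth and regression of the corpus luteum. The receptor CSF1R binds the growth factors CSF1 and IL34, on which most tissue macrophages depend. CD14 is the coreceptor for bacterial lipopolysaccharide (LPS). C1QA, C1QB and C1QC encode the chains of C1q, which starts the classical complement pathway. TYROBP and FCER1G are adaptors that carry an ITAM, a short motif that recruits the kinase SYK, and they serve receptors without a signalling tail of their own. CD68 is a glycoprotein of the lysosome, AIF1 (also called IBA1) binds actin and calcium, and CD74 is the invariant chain that escorts MHC class II molecules to the compartment where they are loaded with peptide.

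Total counts per library ranged from 10803913 (W8) to 20992535 (W7). On the first principal component of log2 CPM over the tested genes, which held 42.4% of the variance, W4 (99.0) and D6 (88.1) lay at one end and D4 (-100.0) at the other, while the other 6 libraries lay between -60.0 and 18.5. The ovarian label was checked against steroidogenic and follicular markers. STAR, which carries cholesterol into mitochondria, ranged from 19.7 to 213 CPM, CYP11A1 from 73.6 to 493 CPM and INHA, the inhibin alpha chain, from 13.6 to 95.2 CPM. Of the other ovary genes with a row, INHBA ranged from 15.5 to 167 CPM and HSD3B1 from 14.7 to 98.1. LHCGR ranged from 19.6 to 35.2 CPM and NR5A1 from 8.16 to 32.5. CYP17A1 was uneven, at 119.5 CPM in D4 and 2.81 to 69.3 in the other libraries. FSHR was read at 5.42 to 14.4 CPM and ZP3 at 1.29 to 9.73. GDF9 and AMH were low, at 1.17 to 4.75 and 0.334 to 2.39 CPM. WT1 had at most 10 reads in a library. OVGP1, the secreted glycoprotein of the oviduct, was also read at 371 to 1825 CPM. CPM are counts per 1000000 counts of the library, scaled with TMM factors.

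The macrophage genes differed widely between single ewes, and no difference between the groups passed the test. None of the 9 tested genes was called in any contrast, none had an unadjusted p under 0.05 and none had groups whose CPM did not overlap. For a call, the quasi-likelihood test of edgeR had to give an adjusted p below 0.05 with a fold change above 1.5 in either direction. Over all tested genes, 0% were called in Han BB vs. Dorset, 4.99% had an unadjusted p under 0.05 and 8.79% had groups that did not overlap. In Han ++ vs. Dorset these shares were 0.00593%, which was 1 gene, 5.27% and 11.1%. In Han BB vs. Han ++ they were 0%, 1.97% and 9.38%. DESeq2 called 38, 65 and 2 genes in the 3 contrasts (0.154%, 0.263% and 0.0081% of those it tested) and again no macrophage gene.

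In Han BB vs. Dorset, 6 of the 9 genes were fitted higher and 3 lower, with a median log2 fold change of 0.24 against -0.0058 over all genes. The fitted values ran from -0.48 (C1QB) to 0.75 (CD68), and the lowest adjusted p was 0.996. In Han ++ vs. Dorset, 4 were fitted higher and 5 lower, with a median of -0.20 against -0.061 over all genes and a range of -0.77 (C1QB) to 0.69 (CD68). In Han BB vs. Han ++, 7 were fitted higher and 2 lower, with a median of 0.11 against 0.035 over all genes and a range of -0.074 (CSF1R) to 0.81 (AIF1). The contrasts share groups, so their values are not independent of each other. A single test over the 3 groups gave unadjusted p between 0.295 (AIF1) and 0.917 (C1QC). In a whole ovary, fewer macrophages and less RNA per macrophage cannot be told apart.

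**Figure D1:**
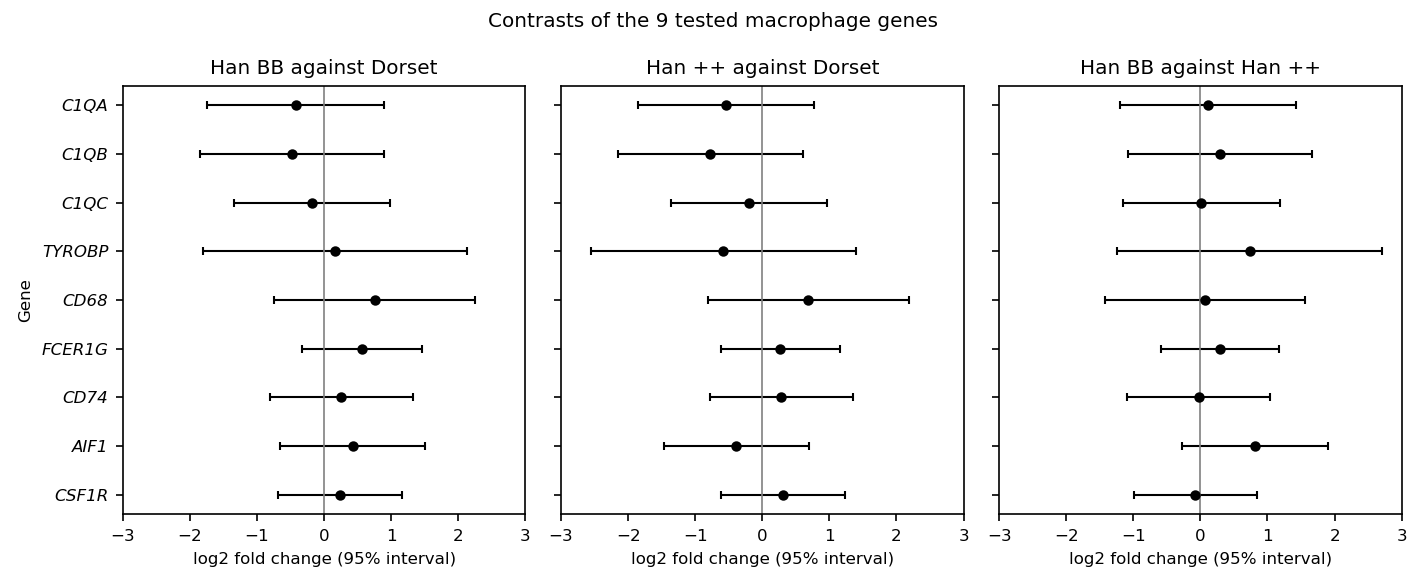
Fitted log2 fold changes (points) with 95% intervals (bars) of the 9 tested macrophage genes, in 1 panel for each contrast, from edgeR. Every interval spans 0, and the widest intervals are those of TYROBP, which reach from -1.81 to 2.12 in Han BB vs. Dorset.

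Over the 9 libraries the highest level of a gene was between 3.44 times (FCER1G) and 12 times (TYROBP) its lowest. Among 10013 genes with a mean of at least 10 CPM, 1.35% had a standard deviation of log2 CPM as large as that of TYROBP, 2.73% as large as that of CD68 and 5.73% as large as that of C1QB. That share was 8.28% for C1QA, 11.2% for AIF1, 13% for C1QC, 16.7% for CD74, 21.3% for CSF1R and 30.1% for FCER1G. Between the highest and the lowest ewe of a group lay 1.25-fold (TYROBP) to 2.07-fold (CD68) in Han ++, 1.08-fold (CSF1R) to 7.12-fold (TYROBP) in Han BB and 2.69-fold (FCER1G) to 12-fold (TYROBP) in Dorset. The Han ++ range was the narrowest of the 3 for 8 of the 9 genes and the Han BB range for CSF1R.

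**Figure D2:**
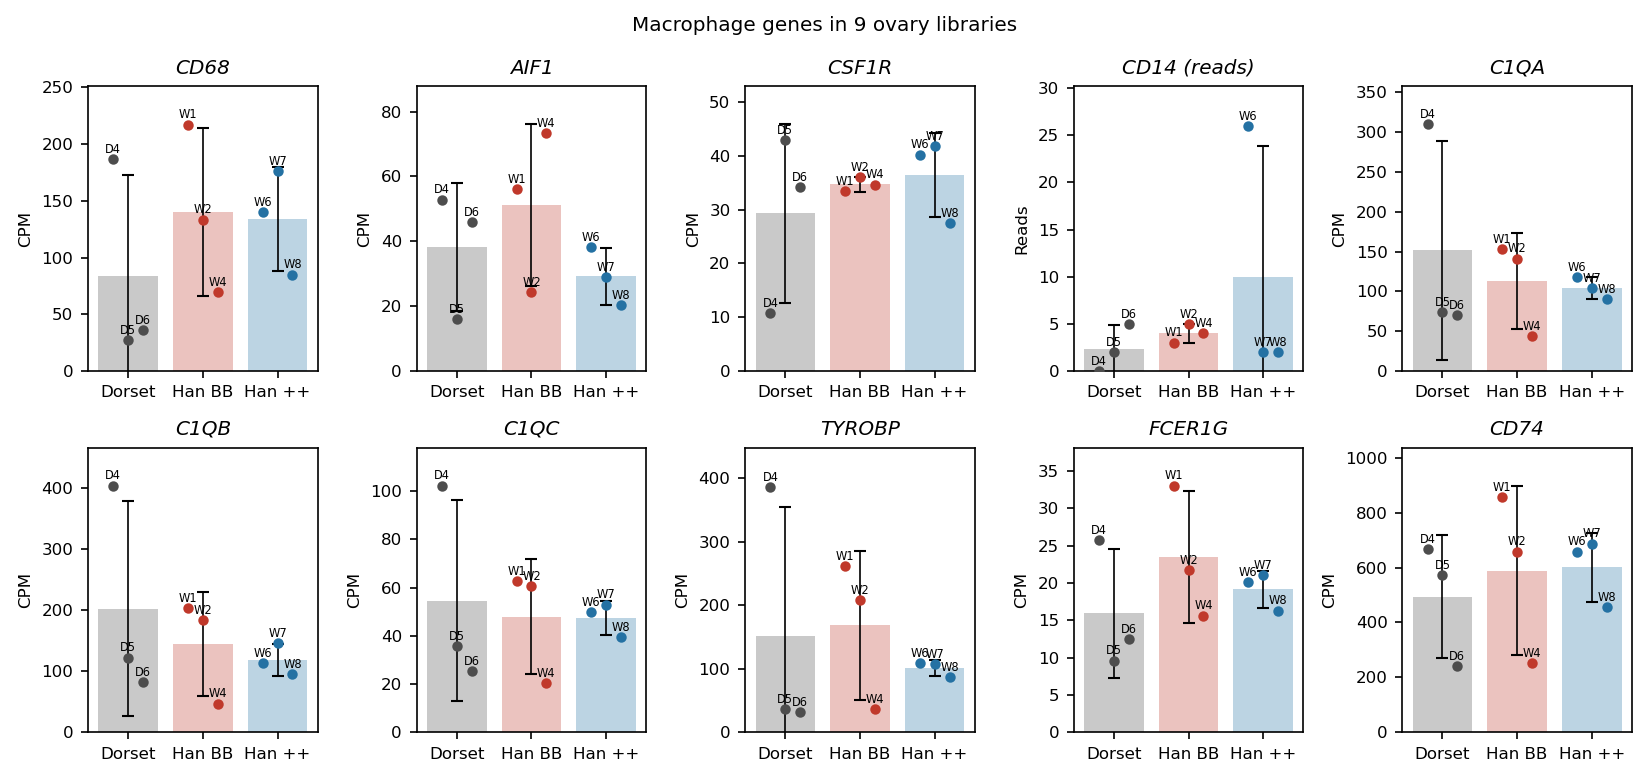
Levels of the 10 macrophage genes by group, in CPM (reads per library for CD14). Points are ewes, bars are group means and error bars are SDs over 3 ewes. D4 stands far above D5 and D6 for C1QA, C1QB, C1QC, TYROBP and CD68 and below them for CSF1R.

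CD68, the lysosomal marker, was read at 187 CPM in D4, 26.9 in D5 and 36.0 in D6. The Han BB ewes had 217 (W1), 133 (W2) and 69.4 (W4) CPM. The Han ++ ewes had 140.3 (W6), 176 (W7) and 84.9 (W8) CPM. All 6 Han ewes lay above D5 and D6, while D4 lay above 5 of the 6 Han ewes, so the groups overlapped. Means were 83.3 ± 89.8 CPM in Dorset, 140.0 ± 74.1 in Han BB and 134 ± 46.0 in Han ++ (SD, n = 3). The log2 fold change was 0.75 in Han BB vs. Dorset (SE 0.68, 95% interval -0.74 to 2.25) and 0.69 in Han ++ vs. Dorset (SE 0.68, -0.81 to 2.18). It was 0.065 in Han BB vs. Han ++ (SE 0.68, -1.42 to 1.55).

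AIF1, the actin-binding marker, ordered the ewes differently from CD68. The Dorset ewes had 52.8 (D4), 15.9 (D5) and 45.9 (D6) CPM. The Han BB ewes had 56.2 (W1), 24.2 (W2) and 73.2 (W4) CPM, and the Han ++ ewes 38.2 (W6), 28.9 (W7) and 20.4 (W8) CPM. W4, among the lowest ewes for 7 of the 9 genes, had the highest AIF1 level. Group means were 38.2 ± 19.7 CPM in Dorset, 51.2 ± 24.9 in Han BB and 29.1 ± 8.91 in Han ++ (SD, n = 3). The largest log2 fold change was 0.81 in Han BB vs. Han ++ (SE 0.49, 95% interval -0.28 to 1.90), with an unadjusted p of 0.128 and an adjusted p of 0.999 from edgeR.

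Of the receptors, CSF1R was the steadiest gene among the Han BB ewes. They had 33.4 (W1), 36.0 (W2) and 34.7 (W4) CPM, a 1.08-fold range. The Han ++ ewes had 40.2 (W6), 41.8 (W7) and 27.4 (W8) CPM, and the Dorset ewes 10.8 (D4), 42.9 (D5) and 34.1 (D6). D4 was the lowest of the 9 for CSF1R, with 111 reads, although it was among the highest 3 for the other 8 tested genes. Group means were 29.3 ± 16.6 CPM in Dorset, 34.7 ± 1.32 in Han BB and 36.5 ± 7.85 in Han ++ (SD, n = 3). The log2 fold change was 0.24 in Han BB vs. Dorset (SE 0.42, 95% interval -0.68 to 1.16) and 0.31 in Han ++ vs. Dorset (SE 0.42, -0.61 to 1.24).

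CD14, the LPS coreceptor, had almost no reads in the count table. W6 had 26 reads, D6 and W2 had 5 each, W4 had 4, W1 had 3, and D5, W7 and W8 had 2 each. D4 had 0 reads, which allows up to 3 counts, for counting error only. Whether the gene model used for the counting covers the CD14 transcript could not be told from the files, so a low level of the transcript and reads missed in the counting cannot be told apart. The same holds for the other genes with few or no reads named here (ITGB2, C3, LBP, LIPA, LYZ, CD247, GNLY and WT1). At this depth a difference between the groups was not detectable for CD14, and no fold change is given.

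D4 was the highest library for each of the 3 C1q chains. C1QA was read at 310.1 (D4), 74.2 (D5) and 70.4 (D6) CPM in Dorset, at 154 (W1), 141 (W2) and 43.3 (W4) in Han BB and at 118 (W6), 104 (W7) and 90.6 (W8) in Han ++. C1QB was read at 403 (D4), 122 (D5) and 81.9 (D6) CPM in Dorset, at 204 (W1), 184 (W2) and 47.2 (W4) in Han BB and at 113 (W6), 147 (W7) and 95.6 (W8) in Han ++. C1QC was read at 102 (D4), 35.8 (D5) and 25.5 (D6) CPM in Dorset, at 62.7 (W1), 60.6 (W2) and 20.5 (W4) in Han BB and at 49.9 (W6), 53.0 (W7) and 39.4 (W8) in Han ++. For each chain W4 was the lowest library, W1 the second highest, and the Han ++ ewes lay between W4 and W2, so the groups overlapped throughout. All 3 chains were fitted lower in both Han groups than in Dorset, by log2 fold changes of -0.43 (C1QA), -0.48 (C1QB) and -0.18 (C1QC) for Han BB and -0.54, -0.77 and -0.20 for Han ++. The 95% interval of the largest, C1QB in Han ++ vs. Dorset, was -2.15 to 0.60 (SE 0.62), with an adjusted p of 1.00 from edgeR. Without D4 the fitted values had the other sign for each chain, at 0.64, 0.50 and 0.64 for Han BB and 0.52, 0.21 and 0.62 for Han ++.

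TYROBP, the adaptor of receptors such as TREM2, had the widest range of the macrophage genes. The Dorset ewes had 386 (D4), 36.4 (D5) and 32.2 (D6) CPM. The Han BB ewes had 261 (W1), 208 (W2) and 36.7 (W4) CPM, and the Han ++ ewes 109 (W6), 108 (W7) and 86.9 (W8) CPM. D4, W1 and W2 were high, D5, D6 and W4 were low, and the Han ++ ewes lay between them. Means were 151 ± 203 CPM in Dorset, 169 ± 117 in Han BB and 101 ± 12.4 in Han ++ (SD, n = 3). The log2 fold change was 0.16 in Han BB vs. Dorset (SE 0.89), -0.58 in Han ++ vs. Dorset (SE 0.90) and 0.74 in Han BB vs. Han ++ (SE 0.90, 95% interval -1.24 to 2.71).

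FCER1G, the common gamma chain of Fc receptors, varied over a narrower range. The Dorset ewes had 25.8 (D4), 9.60 (D5) and 12.5 (D6) CPM, the Han BB ewes 33.0 (W1), 21.7 (W2) and 15.7 (W4) and the Han ++ ewes 20.1 (W6), 21.1 (W7) and 16.3 (W8). As for CD68, all 6 Han ewes lay above D5 and D6, and D4 lay above 5 of the 6. The log2 fold change in Han BB vs. Dorset was 0.56 (SE 0.40, 95% interval -0.33 to 1.45), and in Han ++ vs. Dorset 0.27 (SE 0.40, -0.62 to 1.16).

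CD74, the invariant chain, was read at 668 (D4), 573 (D5) and 240.7 (D6) CPM in the Dorset ewes. The Han BB ewes had 857 (W1), 658 (W2) and 252 (W4) CPM, and the Han ++ ewes 658 (W6), 687 (W7) and 455 (W8) CPM. D6 and W4 were the low libraries, and the other 7 lay within 455 to 857 CPM. Group means were 494 ± 224 CPM in Dorset, 589 ± 309 in Han BB and 600.3 ± 126 in Han ++ (SD, n = 3). The log2 fold changes against Dorset were 0.25 for Han BB (SE 0.48, 95% interval -0.81 to 1.32) and 0.28 for Han ++ (SE 0.48, -0.79 to 1.35).

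**Figure D3:**
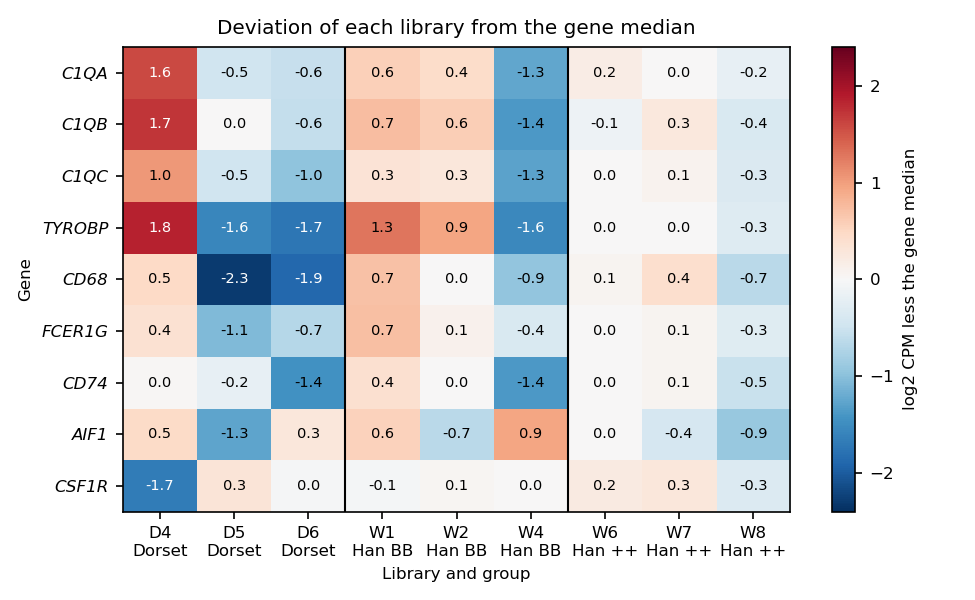
Level of each tested macrophage gene in each ovary as log2 CPM (prior count 2) less the median of that gene over the 9 libraries, with the value in each cell. Red is above and blue below the median. D4 and W1 are red and W4, D5 and D6 blue for most genes, while CSF1R is blue in D4 and AIF1 is red in W4.

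Read by library, W1 and D4 were each among the highest 3 for 8 of the 9 genes. W4 and D6 were each among the lowest 3 for 7 of the 9, and D5 for 6 of the 9. The median deviation of the 9 genes from their own medians was 0.57 (W1), 0.49 (D4), 0.11 (W2), 0.069 (W7), 0.0003 (W6), -0.34 (W8), -0.48 (D5), -0.68 (D6) and -1.26 (W4) on the log2 scale. Each of the highest and lowest libraries thus came from Dorset or Han BB, and the Han ++ libraries lay in the middle. On the first principal component the low libraries W4 and D6 lay at one end and D4 at the other, but D5, also low, lay at 1.94 and W1, the highest, at 4.72, both near the middle. The part of what sets these libraries apart in the levels of the macrophage genes was not tested.

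Leaving out D4 moved the fitted difference from Dorset more than leaving out any other ewe for 7 of the 9 genes in each of the 2 contrasts with Dorset. The others were AIF1 and CD74. In Han BB vs. Dorset AIF1 ran from 0.067 without W4 to 0.77 without W2, and CD74 from -0.11 without W1 to 0.61 without W4. Without D4, CD68 was fitted 2.15 higher in Han BB on the log2 scale (unadjusted p = 0.00155, adjusted p = 0.501, edgeR), TYROBP 2.29 higher (unadjusted p = 0.00554, adjusted p = 0.533) and FCER1G 1.09 higher (unadjusted p = 0.0150, adjusted p = 0.623). In Han ++ vs. Dorset without D4, CD68 was fitted 2.08 higher (unadjusted p = 0.00188, adjusted p = 0.356) and TYROBP 1.55 higher (unadjusted p = 0.0335, adjusted p = 0.569). Thus 3 and 2 of the 9 genes had an unadjusted p under 0.05 without this ewe, where 7.31% and 8.42% of all genes tested without it had, and none was called. CSF1R was then fitted lower, by -0.15 in Han BB and -0.083 in Han ++. With D4 left out, the Dorset group is D5 and D6 only. D4 had the highest mean level of the macrophage genes, so its omission was not a neutral choice. The shares without it cannot serve as a test.

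Ratios of 2 genes within a library depend neither on the depth nor on the scaling. C1QB to C1QA kept within 0.957 (W6) and 1.65 (D5), a 1.72-fold range, C1QA to C1QC within 1.96 (W7) and 3.03 (D4), and C1QB to C1QC within 2.26 (W6) and 3.95 (D4). The ratios between the 3 chains, which form 1 protein, thus varied 1.55-fold to 1.74-fold over the libraries. The levels of the chains differed 4.99-fold to 8.56-fold. The adaptors did not keep such a ratio. TYROBP to FCER1G was 15.0 in D4, 9.57 in W2, 7.91 in W1, 5.11 to 5.42 in the Han ++ ewes, 3.79 in D5, 2.58 in D6 and 2.35 in W4, a 6.37-fold range. CD68 to CSF1R was 17.3 in D4, 2.0 to 6.51 in the Han ewes, 1.06 in D6 and 0.627 in D5, a 27.6-fold range, close to the 27.4-fold range of C1QB to CSF1R. CD68 to AIF1 ran from 0.785 (D6) and 0.947 (W4) to 6.10 (W7), and CD74 to C1QB from 1.65 (D4) to 5.82 (W6).

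**Figure D4:**
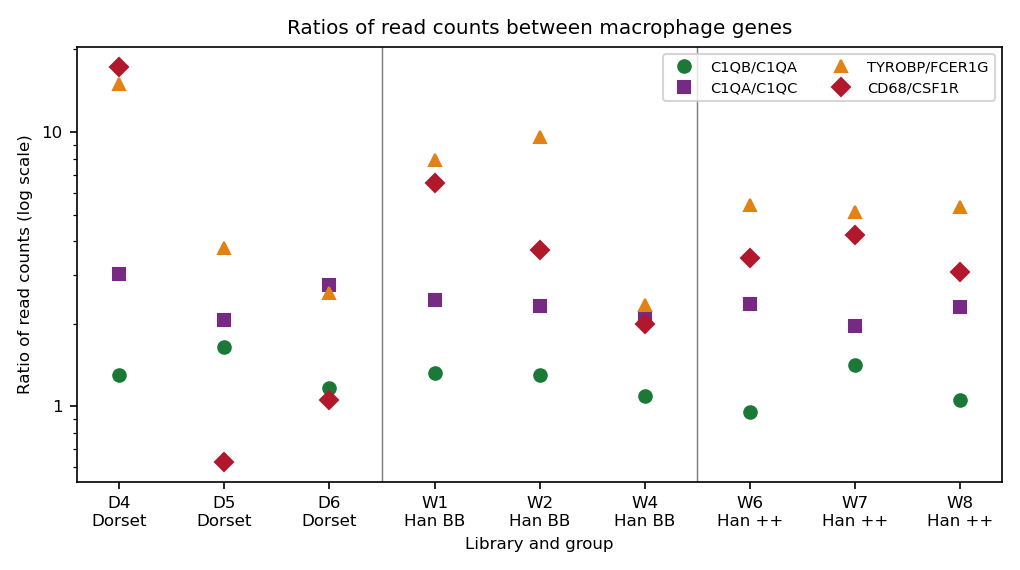
Ratio of the read counts of 2 macrophage genes in each ovary, on a log axis, for C1QB/C1QA (circles), C1QA/C1QC (squares), TYROBP/FCER1G (triangles) and CD68/CSF1R (diamonds). The C1q ratios stay level over the libraries, while TYROBP/FCER1G spans 2.35 to 15.0 and CD68/CSF1R 0.627 to 17.3.

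In the annotation of the assembly ARS-UI_Ramb_v3.0, which is not the one the reads were aligned to and served for names and neighbours only, all 10 genes are protein coding. The C1q genes lie side by side on chromosome 2 in the order C1QB, LOC101123446, C1QC and C1QA. CSF1R and CD74 lie on chromosome 5 with 8 genes between them, of which 6 are protein coding, and CD14 lies on the same chromosome. CD68 overlaps EIF4A1 and SOX15 there, and AIF1 overlaps NCR3 and LST1. Since the strand setting of the counting is not given in the sources used here, reads of overlapping genes could have been shared, and the levels of CD68 and AIF1 are uncertain to that degree.

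The other genes of the pathways these macrophage genes belong to were taken from 8 lists with 136 gene symbols, of which 105 had a row and 90 were tested. None was called in any contrast by edgeR. In Han BB vs. Dorset 8 of the 90 had an unadjusted p under 0.05, all fitted higher, which is 8.89% against 4.99% of all genes. In Han ++ vs. Dorset there were 11, with 9 fitted higher and 2 lower, which is 12.2% against 5.27%. In Han BB vs. Han ++ there were 2, which is 2.22% against 1.97%. Groups did not overlap for 8 (8.89%), 15 (16.7%) and 7 (7.78%) of the 90, against 8.79%, 11.1% and 9.38% of all genes. The median log2 fold changes were 0.28, 0.21 and 0.11. Both contrasts with Dorset rest on the same 3 Dorset libraries. Without D4, 23 of 93 genes (24.7%) and 28 of 93 (30.1%) had an unadjusted p under 0.05 in these 2 contrasts, against 7.31% and 8.42% of all genes tested without it, and still none was called. D4 had the highest mean level of the macrophage genes, so its omission was not a neutral choice. The shares without it cannot serve as a test.

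**Figure D5:**
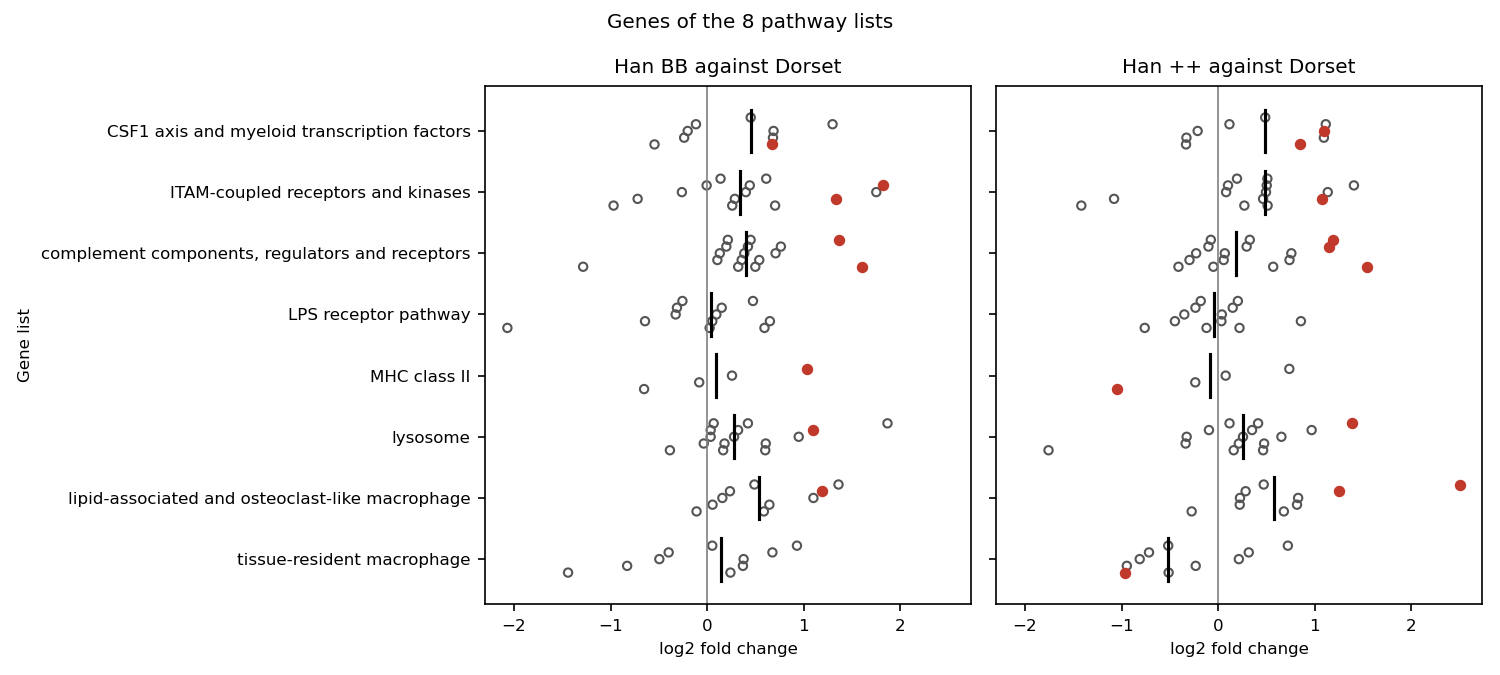
Fitted log2 fold changes of the tested genes of the 8 pathway lists in Han BB vs. Dorset (left) and Han ++ vs. Dorset (right). Each circle is a gene, filled red where its unadjusted p was under 0.05, and black lines are list medians. Most red points lie to the right of 0, and the tissue-resident list has a median of -0.51 in Han ++ vs. Dorset.

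Of the ITAM-coupled receptors and kinases, 14 of 18 were tested, with 10 fitted higher and 4 lower in Han BB and 12 and 2 in Han ++, each against Dorset. Named after its values were seen, SYK, the kinase that TYROBP and FCER1G recruit, was read at 19.0 (D4), 11.5 (D5) and 16.5 (D6) CPM in Dorset. It was read at 42.2 (W1), 26.8 (W2) and 49.1 (W4) CPM in Han BB and at 35.4 (W6), 27.5 (W7) and 36.2 (W8) CPM in Han ++. All 6 Han ewes lay above all 3 Dorset ewes. The log2 fold change was 1.33 in Han BB (SE 0.31, adjusted p = 0.749, edgeR) and 1.08 in Han ++ (SE 0.31, adjusted p = 0.643). DESeq2 called SYK in Han BB vs. Dorset, at 1.35 with an adjusted p of 0.0488, and no other gene of the 8 lists in any contrast. This was 1 of the 103 list genes it tested there, where it called 38 of all 24699 genes (0.154%). D4 was the highest library for TREM1, which signals through TYROBP, with 25.1 CPM against 0.541 to 8.55 in the others. It was also the highest for FCGR1A, the high-affinity IgG receptor (61.0 against 7.48 to 15.1), and for FCGR2B, the inhibitory IgG receptor (18.4 against 2.79 to 9.95), both named once their values had been seen. D4 was low for CLEC7A, the beta-glucan receptor, with 3.60 CPM against 4.64 to 46.2, the highest of these in W4.

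Among complement genes, 16 of 22 were tested, and 15 were fitted higher in Han BB than in Dorset, with a median of 0.40, against 10 in Han ++, with a median of 0.18. Several genes of this list were again named after their values were seen (ITGAM, ITGAX, C5AR1, ITGB2, C3, C1R and C1S). ITGAM, the alpha chain of complement receptor CR3, was read at 33.0 (D4), 8.02 (D5) and 15.2 (D6) CPM in Dorset against 38.9 to 74.7 in the 6 Han ewes, without overlap. The log2 fold change of ITGAM was 1.60 for Han BB (SE 0.47, adjusted p = 0.963, edgeR) and 1.54 in Han ++ (SE 0.47, adjusted p = 0.710). C5AR1, the receptor for C5a, had log2 fold changes of 1.36 and 1.15, and ITGAX 0.76 and 1.19. ITGB2, the partner chain of ITGAM and ITGAX, had at most 7 reads and C3 had 0 reads in every library. C1R and C1S, the proteases that C1q activates, were read at 295 to 643 and 259 to 694 CPM with 588 and 554 CPM in D4. Of the remaining genes, C5 was high in D4 (9.25 CPM against 0.420 to 4.44) and C3AR1 low (1.17 against 2.68 to 6.79).

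Of the CSF1 axis and the myeloid transcription factors, 9 of 12 were tested, with medians of 0.45 in Han BB and 0.49 in Han ++. CSF1, the ligand of CSF1R, was read at 3.21 CPM in D4 and 4.15 to 10.2 CPM in the other libraries, and IL34, the second ligand, at 8.08 CPM in D4 and 2.14 to 5.43 CPM in the others. D4 was thus the lowest library for CSF1R and for CSF1 and the highest for IL34. SPI1, which encodes PU.1, a factor that myeloid cells need, was read at 5.36 to 16.6 CPM in Dorset and 17.3 to 23.7 in Han ++, with a log2 fold change of 1.1 (SE 0.46, unadjusted p = 0.0369, adjusted p = 0.902, edgeR). In Han BB vs. Dorset the groups overlapped for SPI1, with a log2 fold change of 0.45 (SE 0.46). In Han ++ vs. Dorset CEBPA had 0.85, CEBPB 0.12 and IRF8 -0.33. The ligands CSF1 and IL34 and the factors SPI1, CEBPA and IRF8 were named once their values had been seen. By the ratio of D4 to the median of the other libraries, CEBPB was the highest tested gene of this list (24.3 CPM against 4.55 to 17.0) and TFEC the lowest (2.82 against 2.03 to 19.5).

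In the list for the lysosome, where CD68 resides, all 15 genes with a row were tested, with 13 fitted higher in Han BB and 11 in Han ++. Its summed level was 8093 CPM in D4 and 2402 and 3138 CPM in D5 and D6, against 4270 to 7277 among the Han BB ewes and 5005 to 6570 in Han ++. D5 and D6 lay below all 6 Han ewes and D4 was high, as for CD68. CTSB, a cysteine protease and the largest part of this sum in D4, was read at 3684 (D4), 481 (D5) and 684 (D6) CPM in Dorset and 1039.5 to 2548 CPM in the Han ewes. GRN, the progranulin gene, had a log2 fold change of 1.1 in Han BB (SE 0.44, adjusted p = 0.975, edgeR) and 1.39 in Han ++ (SE 0.44, adjusted p = 0.754). LIPA, the highest of the list by the ratio of D4 to the median of the others, had at most 24 reads in a library. CTSB was named after its values were seen.

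For MHC class II, the pathway of CD74, 4 of the 18 listed symbols were tested. No class II alpha or beta chain was among them. DYA, the only listed chain with a row, had at most 13 reads, and the human symbols of the list had no row. CTSS, the protease that trims CD74, was read at 55.5 to 121 CPM in Dorset, 115 to 257 among the Han BB ewes and 96.0 to 216 in Han ++, with log2 fold changes of 1.04 (SE 0.43, unadjusted p = 0.0344, edgeR) and 0.74 (SE 0.43). RFX5, a transcription factor of the class II promoters, had -0.65 and -1.05 (SE 0.32 each), and the Dorset ewes (20.2 to 30.1 CPM) lay above all 6 Han ewes (10.1 to 19.2). RFXANK, its partner, was highest in D4 (49.7 CPM against 14.6 to 39.2) and lowest in W4. RFX5 and DYA were named once their values had been seen.

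The LPS receptor pathway, to which CD14 belongs, had 12 of 15 genes tested and medians of 0.039 and -0.044 against Dorset, with none at an unadjusted p under 0.05. TLR4 and LY96, the receptor and its cofactor, were read at 8.47 to 24.6 and 9.83 to 39.9 CPM, while CD14 had at most 26 reads in a library. Levels of different genes were not compared, since lengths were not used here. LBP had at most 23 reads, and NFKB1 was lowest in D4 (34.7 CPM against 52.2 to 70.2). TLR4 and LY96 were named once their values had been seen.

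For macrophage states, no gene was called and the difference between lists was not tested. Of the lipid-associated and osteoclast-like list, 9 of the 10 tested genes were fitted higher in each Han group than in Dorset, with medians of 0.54 and 0.58. MSR1, a scavenger receptor, was read at 56.7 (D4), 12.5 (D5) and 31.5 (D6) CPM in Dorset and 52.3 to 105 in the Han ewes, with log2 fold changes of 1.18 and 1.25 (SE 0.48 each, adjusted p = 0.975 and 0.891, edgeR). PLIN2, the coat protein of lipid droplets, had 787 CPM in D4 and 83.7 in D5. DCSTAMP, the highest of the list by the ratio of D4 to the others, had at most 22 reads. Of the tissue-resident list, 6 of the 10 tested genes were fitted higher in Han BB and 3 in Han ++, with medians of 0.15 and -0.51. LYVE1 was read at 15.8 to 21.6 CPM in Dorset and 5.73 to 14.9 in Han ++, with a log2 fold change of -0.97 (SE 0.39, adjusted p = 0.891, edgeR). STAB1 and MERTK did not overlap in Han ++ vs. Dorset either and were fitted higher in Han ++, at 0.72 (SE 0.35) and 0.32 (SE 0.26). FOLR2 and TIMD4 were highest in D4, at 63.1 CPM against 9.42 to 42.7 and 14.6 against 2.21 to 7.71. CX3CR1, the fractalkine receptor, was read at 1.46 CPM in D4 and 1.47 to 5.67 CPM in the others. PLIN2, LYVE1, STAB1, MERTK and FOLR2 were named after their values were seen.

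Markers of other cells moved with some of these results, and their part in them was not tested. In D4 the summed B and plasma cell markers were at 23.7 CPM against 2.14 to 10.5 in the other libraries. The dendritic cell markers were at 64.4 against 20.6 to 41.0 and the ovary list at 1046 against 420 to 908. Of the dendritic list, CD83, ZBTB46, BATF3, CCR7 and LAMP3 were highest in D4. FLT3 (2.24 CPM in D4 against 1.14 to 7.37), XCR1 (0.195 against 0.0475 to 1.05) and CLEC9A (1.07 against 0.184 to 2.10) were not. The smooth muscle list was lowest in D4 (6357 CPM) and highest in D5 (12445) and D6 (12263). Of its genes only MYH11 was lowest in D4, at 1312 CPM against 5320 in D5 and 5940 in D6. T cell markers kept between 46.0 and 68.9 CPM in all 9 libraries. The pan-leukocyte markers, which macrophages share, were at 249 CPM in D5, 442 in D6, 611 in D4, 500 to 646 among the Han BB ewes and 411 to 558 in Han ++. Monocyte and neutrophil markers summed to 14.6 to 30.2 CPM in Dorset, 26.8 to 60.7 among the Han BB ewes and 21.9 to 41.7 in Han ++. The oviduct epithelium list was at 469 to 984 CPM in Dorset and 1005 to 2079 in the Han ewes. OVGP1 made up most of this sum in every library. Of its 8 genes, 2 did not overlap with Dorset in Han BB and 3 in Han ++, where 8.79% and 11.1% of all genes did not. Natural killer cell markers were at 3.88 to 15.1 CPM, mast cell markers at 0.811 to 4.79, red blood cell markers at 0 to 4.77 and endothelial markers at 362 to 582. Of the defining markers, CD247 (T cell), GNLY (natural killer cell) and LYZ (monocyte) had at most 2, 0 and 13 reads.

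The genes whose levels were most like the mean profile of the 9 macrophage genes over the 9 libraries, by Pearson's r of log2 CPM, were CBR3 (0.981), AP2B1.1 (0.969), STX10 (0.967), HSBP1 (0.962), NDFIP1 (0.959), LTA4H (0.956), SAT1 (0.954), B2M (0.950), TMEM251 (0.950) and CTSK (0.949). These are descriptions over 9 points that share the libraries and their depth. Of the 10, 4 stayed among the 10 most alike without D4 and 1 without W4 and D6. CTSK, for example, ran from 300.2 CPM in D6 to 1198 CPM in D4. The r of the macrophage genes with the mean that includes them was 0.978 for TYROBP, 0.931 for C1QC, 0.920 for FCER1G, 0.910 for CD68, 0.904 for C1QA, 0.857 for C1QB, 0.815 for CD74, 0.21 for AIF1 and -0.46 for CSF1R. Both of the lowest values depended on which libraries were used. The r of AIF1 was 0.071 without D4 and 0.918 without W4 and D6, and that of CSF1R was 0.052 without D4 and -0.52 without W4 and D6.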

How the data were processed

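Whole ovaries of 9 ewes were sequenced by RNA-Seq, with 1 library per ewe and 3 ewes per group. Per the labels and methods, the authors aligned the reads with TopHat to Oar_v3.1 and used the uniquely mapped ones, and the counts they deposited are raw, with no scaling. Neither the counting tool nor its handling of strand is given in the sources used here. A stranded kit that removes ribosomal and globin RNA is named in the methods, and a different Illumina kit in the labels.

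The deposited counts were tested in R 4.3.3 with the quasi-likelihood F-test of edgeR 4.0.16 (TMM, expression filter by group, 1 fit of all 9 libraries, group only), on 16871 of 27174 rows. P values were adjusted over these rows by the Benjamini-Hochberg method. Calls used the cutoffs of the study, which applied DESeq: 0.05 for the adjusted p, and 1.5-fold in either direction. The common biological coefficient of variation was 0.472. All tests are two-sided. SE is the log2 fold change divided by the square root of F, and intervals use the fit's degrees of freedom. Log2 CPM used a prior count of 2. The fit was tested on simulated data. Alternatives used DESeq2 1.42.0, limma 3.58.1 (voom with quality weights), DESeq2's size factors, other filters, 2 groups only, no fold threshold, a term for W4 and D6, and fewer libraries. Figures were drawn with Python 3.11.15 and matplotlib 3.10.9.

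Named were all macrophage genes, the tested gene of each pathway list with the highest and that with the lowest ratio of D4, the library with the highest mean level, to the median of the other 8, and the 10 genes most like the mean profile. Any others from the pathway lists are said to be named after their values were seen. Marker lists of other cells are given as sums, and MYH11 was named after its values were seen. The genes, lists and alternatives were chosen with earlier results of these data known. CD163, APOE, FOXL2 and CYP19A1 had no row under these symbols in the count table, so they were not analysed here. The ewes are separate animals, and intervals on counts cover counting error only.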

Additional observations from a re-analysis of the deposited data

How the results depend on the processing

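No macrophage gene was called under any alternative, and the lowest adjusted p was 0.224 (C1QB, Han ++ vs. Dorset, with a term for W4 and D6). Signs were less stable. Of 27 log2 fold changes, 20 had the other sign under at least 1 alternative. With limma voom and quality weights, Han BB vs. Dorset gave 0.42 (C1QA), 0.25 (C1QB) and 0.48 (C1QC), Han ++ vs. Dorset gave 0.27 (AIF1), 0.066 (C1QA), 0.25 (C1QC) and 0.83 (TYROBP), and Han BB vs. Han ++ gave 0.23 (CD74). CD74 was at -0.042 and 0.33 in Han ++ vs. Dorset and Han BB vs. Han ++ without W4 and D6, and at -0.085 and 0.30 with the term. The cause was not tested.

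Voom also moved CD68 to 1.99 (unadjusted p = 0.00261), TYROBP to 1.84 (0.0131) and FCER1G to 1.19 (0.00558) in Han BB vs. Dorset, and CD68 to 1.66 (0.00615) in Han ++ vs. Dorset. Thus 3 and 1 of 9 had an unadjusted p under 0.05, where 11.5% and 9.78% of all genes had, and the lowest of the 4 adjusted p was 0.268. In Han ++ vs. Dorset, C1QB (-1.21) and C1QA (-0.93) had one with the term, where 12.5% of all genes had, and C1QB (-1.13) without W4 and D6, where 8.87% had.

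Leaving out 1 library at a time turned the sign of the values with these ranges: in Han BB vs. Dorset -0.15 to 0.62 (CSF1R), -0.75 to 0.64 (C1QA), -0.84 to 0.50 (C1QB), -0.51 to 0.64 (C1QC), -0.30 to 2.29 (TYROBP) and -0.11 to 0.61 (CD74), in Han ++ vs. Dorset -0.083 to 0.68 (CSF1R), -0.86 to 0.52 (C1QA), -1.13 to 0.21 (C1QB), -0.52 to 0.62 (C1QC), -1.03 to 1.55 (TYROBP) and -0.043 to 0.56 (CD74) and in Han BB vs. Han ++ -0.43 to 0.38 (CD68), -0.25 to 0.045 (CSF1R), -0.20 to 0.49 (C1QA), -0.068 to 0.70 (C1QB), -0.25 to 0.37 (C1QC), -0.053 to 0.51 (FCER1G) and -0.43 to 0.33 (CD74). D4 alone turned CSF1R, C1QA and C1QB in Han BB vs. Dorset and CSF1R, C1QA, C1QB, C1QC and TYROBP in Han ++ vs. Dorset. Genes called over the whole table in the order of the 3 contrasts were 0, 1 and 0. They were 38, 65 and 2 with DESeq2, 0 and 2 in the last 2 with voom, 2 and 11 in the first 2 without a filter, 0 in the second with 2 groups only, 2 and 22 without W4 and D6, 1 and 78 with the term, and 0 to 1 and 0 to 5 with 1 library left out. Pathway genes at an unadjusted p under 0.05, an alternative added after seeing the data, went from 8, 11 and 2 of 90 to 27, 30 and 6 with voom, where 11.5%, 9.78% and 7.26% of all genes had one. They were 19, 21 and 3 with the term (10.7%, 12.5% and 3.68% of all genes), 13, 11 and 4 of 103 with DESeq2 (5.4%, 4.63% and 2.21%) and 5 of 86, 12 of 87 and 4 of 87 with 2 groups only (3.2%, 5.43% and 2.84%). No paired analysis was possible because the labels give no numbers that pair the ewes. With 3 ewes a group, the spread between ewes limits the precision, and CD14 is limited by its few reads.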
